A study of Caenorhabditis elegans with 2 samples.

Results

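The histone genes of Caenorhabditis elegans were set against the binding regions of ELT-3 in first-stage (L1) larvae. They were chosen by name, as the protein-coding genes whose whole symbol is his- or hil- followed by digits in the Ensembl release 115 annotation of WBcel235. This rule found 80 genes of 19973 protein-coding genes on the 6 nuclear chromosomes. A gene counted as near a region when the region's summit lay within 2 kb of its 5′ end, and a region shared by several histone genes was counted once. ChIP-seq recovers the DNA bound by a protein, and the antibody field names elt-3. The single group, with 2 biological replicates, was of strain OP75, which carries the allele unc-119(ed3) on chromosome III and the transgene wgIs75, and which expresses ELT-3 with GFP and FLAG at its C terminus. The animals were whole L1 larvae, males and females pooled, of unknown age, and chromatin was sheared by sonication. The tagged protein comes from a transgene and whole animals were used, so the lists do not show in which cells a region was bound. No second condition was compared, and the control experiment named in the labels is not analysed here.

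Histones package DNA: H2A, H2B, H3 and H4 form the core of the nucleosome, and H1 linker histones bind the DNA between cores. Most core histone genes of C. elegans lie in clusters of near-identical copies that are expressed with DNA replication, often as divergent pairs, whereas the H3.3 variants can be deposited outside replication. ELT-3 is a zinc finger factor of the GATA type, known from the larval epidermis, and factors of this type bind DNA words built around GATA.

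The 2 optimal peaks near histone genes stood directly upstream of his-37, an H4 gene, and his-24, an H1 gene. In the pooled list a region lay within 2 kb of 35.3% to 46.7% of the genes of each core class, against 73.0% of all protein-coding genes, and of all but 1 of the linker and H3.3-type genes. The core genes lie largely in repeated sequence. The median share of sequence within 2 kb that is unique in the genome ran from 33.7% (H2B) to 47.7% (H4) over the core classes. It was 99.7% for the linker genes and 99.1% for the H3.3-type genes. The part of this difference in the class counts was not tested. No test was made over the 80 genes, which were chosen with earlier results of these data known, and the counts are descriptions.

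The authors' lists in build ce11 held 253 optimal peaks, 30000 regions for the replicates pooled, 30000 for replicate 1 and 15646 for replicate 2. The optimal peaks are the thresholded set, while background is listed along with peaks in the 3 longer lists. The signal of a region is a score deposited by the authors on an unstated scale. It is compared within a list, and values of different lists are only set side by side. Read depths are unknown.

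Among the 80 histone genes, 17 encode H2A, 17 H2B, 16 H4, 15 H3, 9 linker histones (his-24 and hil-1 to hil-8) and 6 are called H3.3-type here (his-69 to his-74). RefSeq describes his-71 and his-72 as H3.3, his-69, his-70 and his-74 as H3.3-like, and his-73 only by its histone domain. Of all 80, 67 lay in 14 clusters, in which neighbouring 5′ ends were at most 10 kb apart, and 13 stood alone. The annotated 5′ end was the start codon for 65, so that distances for these are to the start of the coding sequence.

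Of the 80 histone genes, 4 (5.0%, 95% exact interval 1.38 to 12.3) had an optimal peak within 2 kb, against 1.21% of all protein-coding genes. These were his-37, his-41, his-35 and his-24. The first 3 shared a single peak, so the count rests on 2 peaks.

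The stronger peak lay at chrV:9546886-9547135, between genes, with its summit 94 bp upstream of his-37. Its signal was 60.9 in the pooled list, where it ranked 54 of 30000. In replicate 1 its signal was 23.8, and in replicate 2 it was 34.7. Within each replicate this was the region of largest signal near any histone gene, but its rank differed. It ranked 34 in replicate 2 and 255 in replicate 1, just outside the 253 strongest regions of that replicate. The same summit lay 1475 bp downstream of the 5′ end of his-41, which encodes H2B, and 1723 bp upstream of that of his-35, which encodes H2A.

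The second peak lay at chrX:14489936-14490185, between genes, with its summit 33 bp upstream of his-24, which encodes an H1 linker histone. Its pooled signal was 43.8, at rank 233. The replicate values were 18.6 at rank 925 in replicate 1 and 23.3 at rank 203 in replicate 2. Both peaks were thus nearer the top of the replicate 2 list than of the replicate 1 list.

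The DNA around both summits is shown because it shares a run of 20 bases, which is in capitals. It was found by comparing the windows after their values were seen. The window of hil-3, an H1 gene described below, is added since it equals the run at 18 of 20 positions. That of hil-4, another H1 gene, is added since it holds the same pattern without a pooled region. The first 3 windows are the 101 bases centred on the pooled summit, and that of hil-4 ends at the gene's first base. All are read on the plus strand of WBcel235, on which all 4 genes lie.
his-37, chrV:9546961-9547061: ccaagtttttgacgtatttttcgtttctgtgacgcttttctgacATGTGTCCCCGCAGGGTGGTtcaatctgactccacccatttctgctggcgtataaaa
his-24, chrX:14490011-14490111: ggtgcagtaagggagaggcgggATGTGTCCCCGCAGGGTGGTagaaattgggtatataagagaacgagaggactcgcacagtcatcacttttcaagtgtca
hil-3, chrX:8159016-8159116: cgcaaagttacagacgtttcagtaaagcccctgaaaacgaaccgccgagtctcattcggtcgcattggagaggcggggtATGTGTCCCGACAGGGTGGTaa
hil-4, chrV:4754213-4754313: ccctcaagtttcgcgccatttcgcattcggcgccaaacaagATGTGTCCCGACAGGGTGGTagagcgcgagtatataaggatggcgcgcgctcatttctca

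The pattern ATGTGTCCCNNCAGGGTGGT, searched on both strands, occurred 10 times in the genome. It lay between 250 bp upstream and 50 bp downstream of the 5′ end of 5 histone genes (6.25% of 80), which were his-37, his-24, hil-3, hil-4 and hil-5. Over all 19973 genes it lay in that window of 6 (0.03%), the sixth being K07C5.13. The pattern was drawn from 3 of these same genes, so their part in the count is fixed by its choice, whereas hil-4, hil-5 and K07C5.13 were not used.

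The pattern lay within 100 bp of a pooled summit at 4 of its 10 places. Its middle was 3 bp from the summit at his-37, 19 bp at his-24, 38 bp at hil-3 and 60 bp at hil-5. The pattern was drawn from windows centred on the summits at his-37, his-24 and hil-3, so their closeness was fixed by its choice. Of the places not used to draw it, only that at hil-5 lay within 100 bp of a pooled summit. At hil-4 the nearest pooled summit was 3435 bp away, and at K07C5.13 it was 4376 bp away. The pattern was thus present both with and without a listed region. With up to 1 mismatch hil-2 joined the histone genes, with the match 674 bp from a pooled summit.

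With up to 2 mismatches 17 histone genes (21.25%) of 18 genes in all held a match in that window, and with up to 3 mismatches 25 (31.25%) of 27. The added histone genes were mostly core genes, among them divergent pairs such as his-59 and his-60 or his-31 and his-32. A match in the gap of such a pair could count for both genes. The gaps of his-9/his-10, his-13/his-14 and his-25/his-26 were identical, so their matches are copies of 1 sequence. None of the 31-base words in these gaps occurs once in the genome, which limits the finding of summits there. None of the added matches at a histone gene lay within 100 bp of a pooled summit. The closest was that at his-67, with 2 mismatches, 147 bp from the pooled summit of signal 33.1 in the gap between his-67 and his-68. A match is a description of the sequence, and whether ELT-3 contacts it was not tested.

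In the pooled list 40 of 80 histone genes (50%, 95% exact interval 38.6 to 61.4) had a region within 2 kb, against 73.0% of all protein-coding genes, through 41 distinct regions. Replicate 1 gave 42 genes (52.5%, 41.0 to 63.8) and 46 regions, against 73.3% of all genes. Replicate 2 gave 20 genes (25%, 16 to 35.9) and 21 regions, against 49.1%. In all 3 lists the share was thus below that of all genes. Within 500 bp, a distance added after the data were seen, it was 10 of 80 (12.5%, 6.16 to 21.8) in the pooled list, against 31.4%.

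**Figure D1:**
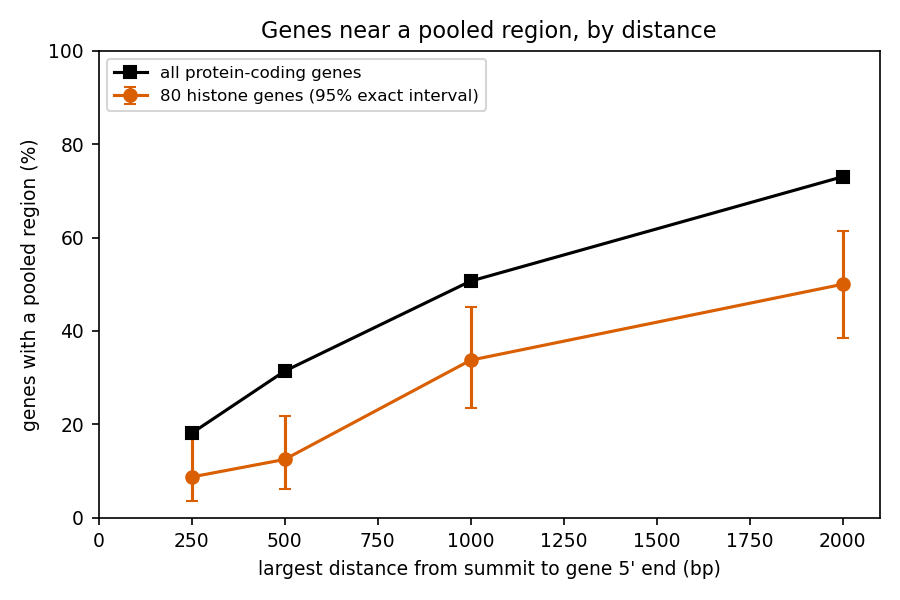
Share of genes (percent) with a pooled region whose summit lies within a given distance (bp) of the gene's 5′ end, for the 80 histone genes (orange circles, bars are 95% exact binomial intervals) and for all protein-coding genes (black squares). The histone share rises from 8.75% at 250 bp to 50% at 2000 bp and lies below that of all genes at each of the 4 distances.

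By class the counts were unequal. In the pooled list a region was present for 8 of 9 linker genes and 6 of 6 H3.3-type genes, but for 7 of 15 H3 genes, 7 of 16 H4 genes, 6 of 17 H2A genes and 6 of 17 H2B genes. In replicate 1 the linker and H3.3-type counts were 9 of 9 and 6 of 6, and in replicate 2 they were 6 of 9 and 2 of 6. The 4 core classes numbered between 6 and 7 genes with a region in replicate 1 and between 2 and 4 in replicate 2.

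**Figure D2:**
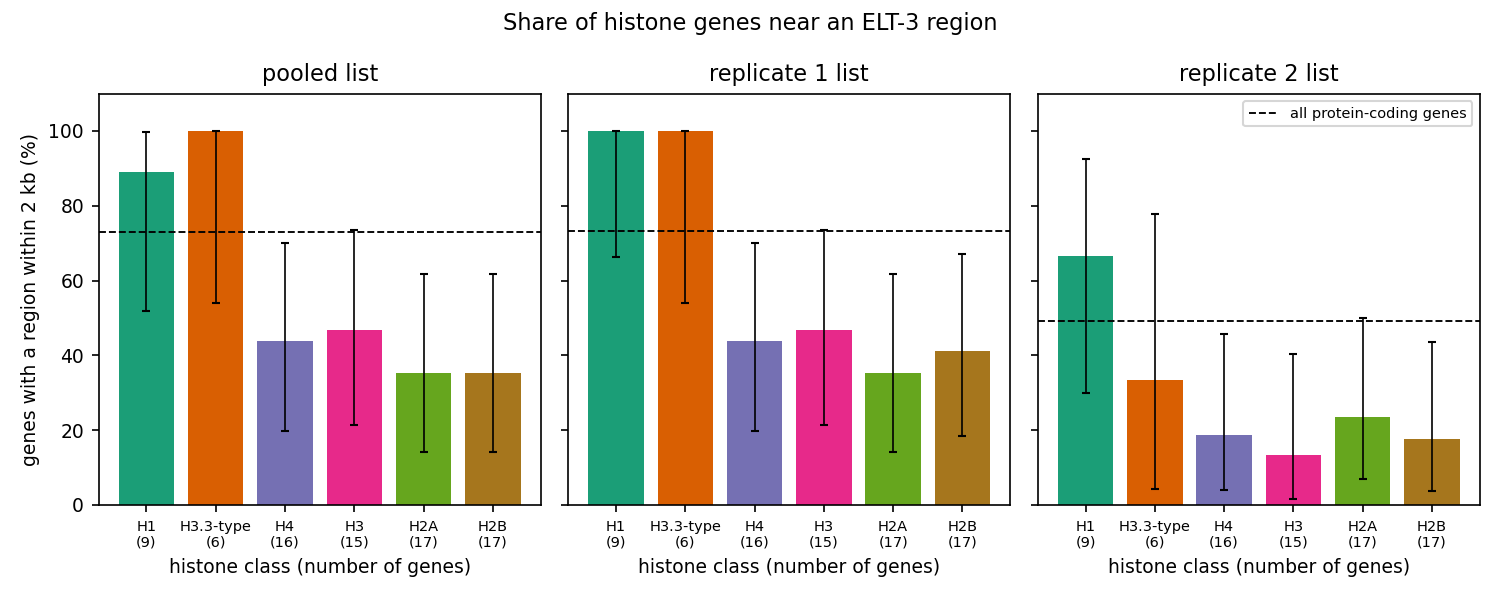
Share of the genes of each histone class (percent, number of genes in parentheses) with a region within 2 kb, in the pooled list and in each replicate's list, where the bars show the share, the black lines its 95% exact binomial interval and the dashed line the share of all protein-coding genes. The linker (H1) bar stands above the dashed line in each of the 3 lists, and each core class stands below it.

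The linker genes differed widely in signal. After his-24, the largest pooled signals near them belonged to hil-2, which encodes H1.2 and had 2 regions. One, of signal 27.6, lay 1925 bp downstream of the 5′ end and beyond the gene, and was matched in replicate 2 (16) but not in replicate 1. The other, of 27.1, lay 624 bp downstream in the gene's own coding exon and was matched in both replicates (15.0 and 10.8).

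The hil-3 gene, which encodes H1.3, had a summit 103 bp upstream with a pooled signal of 25.1, at rank 2325. Its signal was 11.8 in replicate 1 and 11.1 in replicate 2. The hil-8 region, of signal 24.5, lay in an intron of the gene, 262 bp downstream of the 5′ end, with 13.9 and 10.1 in the replicates. Both regions were in every long list, with the replicate signals 1.07-fold apart at hil-3 and 1.38-fold apart at hil-8.

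Summits almost on the 5′ end were found at hil-5 (10 bp downstream, signal 22.3) and hil-1 (73 bp downstream, 22.0), which encode H1.5 and H1.X. Both were matched in replicate 1 (15.1 and 17.5) and neither was matched in replicate 2. The same held for the hil-7 region 763 bp downstream (21.8, and 12.7 in replicate 1). At hil-6 the pooled region was weak (13.7, rank 28887 of 30000) and lay 1675 bp downstream, nearer to F59A7.12. For hil-4, the remaining linker gene, the nearest pooled summit was 3385 bp from the 5′ end. Replicate 1 had 3 regions within 2 kb of hil-4, all downstream. Their signals were 8.64 at 662 bp, 10.8 at 1212 bp and 9.18 at 1560 bp. Both of the farther regions lay nearer to pgl-3. Of the 9 linker genes, his-24, hil-3 and hil-8 had a summit within 500 bp of the 5′ end in both replicates.

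**Figure D3:**
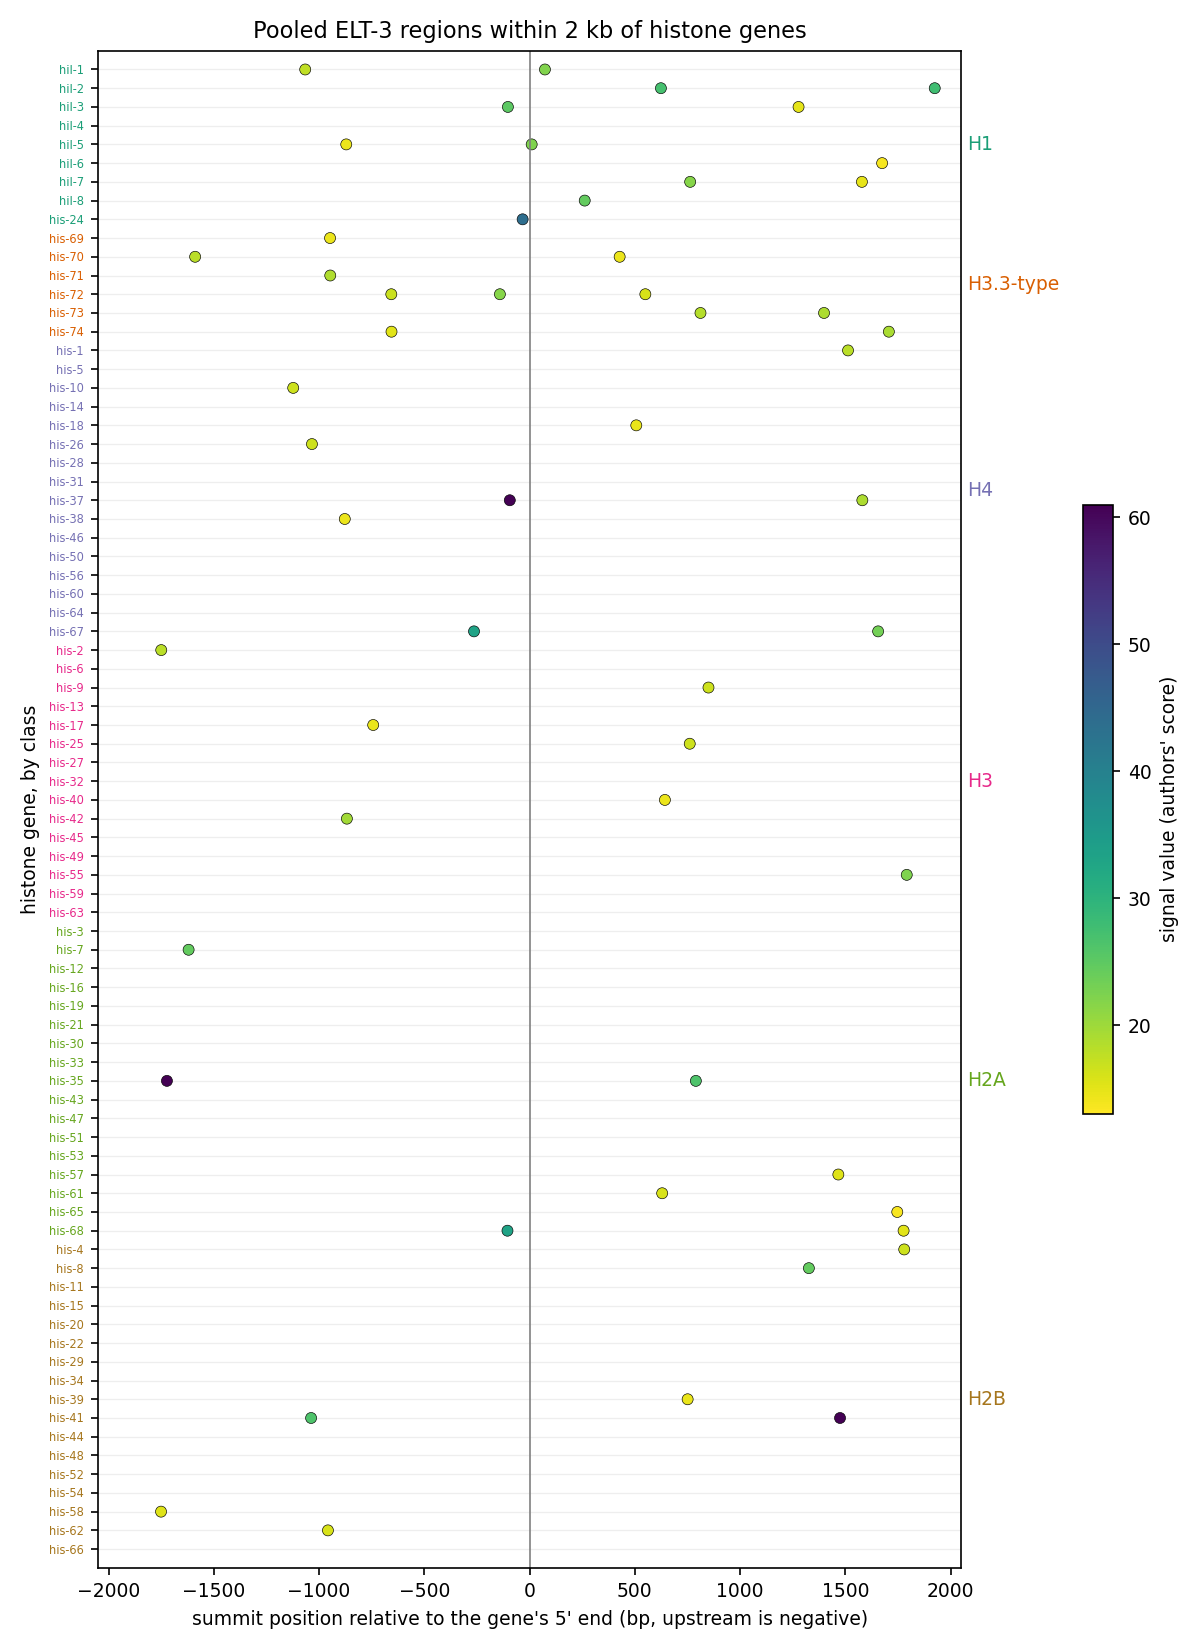
Position of each pooled summit within 2 kb (bp relative to the gene's 5′ end, upstream negative) for the 80 histone genes in rows, coloured by the signal value that the authors gave the region. A region near several genes appears once for each. The darkest points are his-37 (60.9, 94 bp upstream) and, for the same region, his-35 and his-41, and many rows of core genes are empty.

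Among the core genes other than his-37, the region of largest pooled signal lay in the gap between his-67, which encodes H4, and his-68, which encodes H2A. Its signal was 33.1 at rank 626, with 12.2 in replicate 1 and 15.0 in replicate 2. Its summit was 105 bp upstream of his-68 and 264 bp upstream of his-67. A further region 1656 bp downstream of the his-67 5′ end had a signal of 23.2.

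The his-35 gene, which encodes H2A, had a region of 26.4 at 790 bp downstream, with 10.6 in replicate 1 and 17.2 in replicate 2. Its nearest 5′ end was that of mdf-1, at 272 bp, a spindle checkpoint gene. Near his-8, which encodes H2B, the region of 24.5 lay in a coding exon of otpl-5, 1327 bp downstream, and was matched in replicate 1 alone (16.4). The region of 22.3 near his-55, which encodes H3, lay in a coding exon of F54E12.2. These regions can thus not be assigned to the histone gene rather than its neighbour.

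Most core genes form divergent pairs that share 1 gap. There were 31 such pairs, of which 16 were H2A with H2B, 14 were H3 with H4 and 1 was his-67 with his-68, with gaps from 227 to 368 bp. Only the gap between his-67 and his-68 held a summit, in the pooled list and in that of each replicate. Of the 31 gaps, 17 held no 31-base word that occurs once in the genome, and 16 were identical to the gap of another pair. For 7 of the H2A/H2B and H3/H4 pairs the gap was over 90% unique. Of these 7, 0 had a pooled summit within 500 bp of the gap, which allows a share of up to 42.9%. Over all protein-coding genes 31.4% had a pooled summit within 500 bp of the 5′ end. That window is shorter than a gap with 500 bp to each side, and those genes were of any uniqueness. The shares can thus not be compared directly, and no conclusion is drawn from the 0 of 7.

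All 6 H3.3-type genes had a pooled region, mostly with signals near the median. The his-72 region of largest signal, 141 bp upstream of the H3.3 gene, had 21.7 in the pooled list and 15.1 in replicate 1, and was not matched in replicate 2. For his-71, the other H3.3 gene, the region lay 947 bp upstream (18.6, with 11.3 in replicate 1). The largest signals were 19.1 at his-74, 18.9 at his-73 and 18.0 at his-70. The his-74 and his-73 regions lay nearer to other genes (W05B10.6 and W09H1.3). The single region of his-69 had a signal of 14.4 and was shared with his-70. Of these 6 genes, only his-70 and his-72 had a region within 2 kb in replicate 2.

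The 41 pooled regions near histone genes had a median signal of 18.4, from 13.5 to 60.9, against 16.9 over all pooled regions. Their median percentile in the list was 64.1, against 50.2 for regions near any gene, and it was 59.5 in replicate 1 and 57.0 in replicate 2. Above the 90th percentile stood 9 of 41 (22.0%), against 10.3% of regions near any gene. The regions present thus lay somewhat above the middle of the list. A histone gene had the nearest 5′ end for 30 of the 41. Between genes lay 27, in coding exons 9, in introns 3 and in UTRs 2. Of the summits, 12 were upstream of the 5′ end of the closest histone gene while 29 were downstream. No such counts are given for regions near other genes, so whether places and sides are particular to histone genes was not assessed.

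In both replicate lists 16 of 80 histone genes (20%, 11.9 to 30.4) had a region within 2 kb, against 39.6% of all genes. Another 26 had one in replicate 1 alone and 4 in replicate 2 alone (his-5, his-6, his-61 and his-62). Of the 41 pooled regions, 28 (68.3%) had a summit of replicate 1 within 100 bp, 16 (39%) one of replicate 2, 10 (24.4%) of both and 7 (17.1%) of neither. For all other pooled regions the shares were 58.2%, 34.8%, 15.0% and 22.0%. The pooled list was made from the same replicates, so these overlaps are not independent evidence.

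Over the 10 regions found in both replicates the signals lay a median of 1.24-fold apart, and at most 1.63-fold, at his-35. Replicate 2 was higher at 7 of 10, but the scales of the lists are not known to be equal. Spearman's rho between the replicates was 0.479 over these 10 regions, which share their libraries and were chosen for being listed in both.

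**Figure D4:**
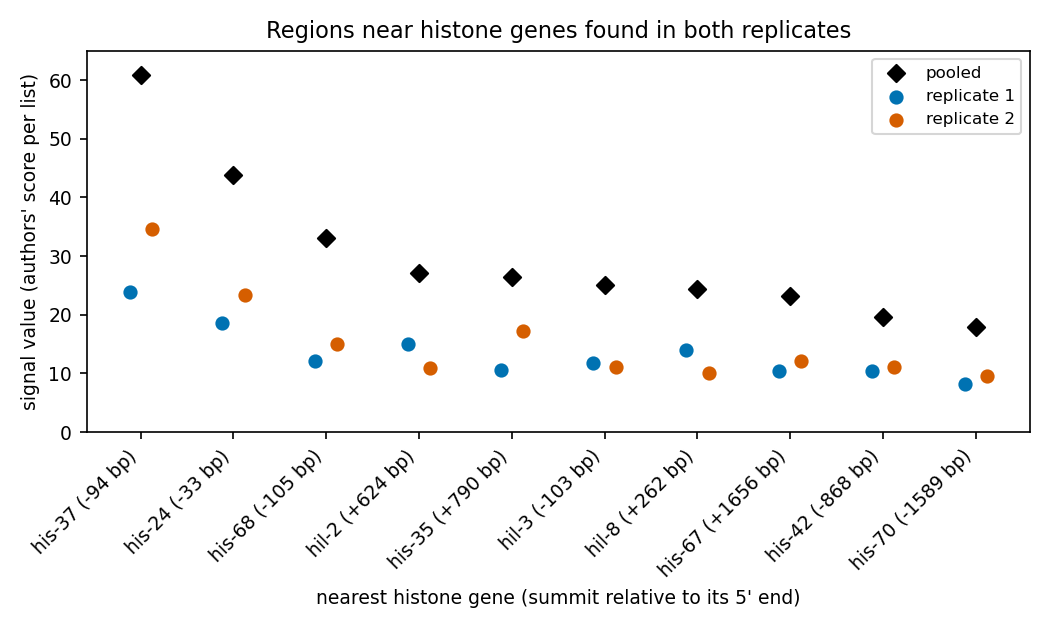
Signal value (the authors' score) of the 10 pooled regions near histone genes with a summit within 100 bp in both replicates, for the pooled list (black diamonds), replicate 1 (blue) and replicate 2 (orange). Regions are named by the closest histone gene with the summit's place relative to its 5′ end. The his-37 and his-24 regions are highest in all 3 lists.

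GATA words at the summits near histone genes were counted next. A word AGATAA or AGATAG, or either of these with T as its first letter, on either strand, lay within 50 bp of the summit for 5 of 41 (12.2%, 4.08 to 26.2), against 17.1% of windows 500 bp to each side and 21.6% of all other pooled regions. Both of these shares lie within the interval, and with the list of replicate 2 alone the share was 23.8%. The 5 were the region between his-67 and his-68, that of hil-2 at 1925 bp, that of hil-5 at 10 bp, that of his-61 at 630 bp and that of his-39 at 751 bp. The peaks at his-37 and his-24 held none.

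The single word GATAAG, of the same length, lay at 0 of 41 summits, which allows up to 7.32%, against 5.52% of all other pooled regions. The unrelated word CGCTCC lay at 0 of 41, against 1.80%. From 50 to 150 bp upstream of the 5′ end, GATA words stood at 23 of 80 histone genes (28.75%), against 24.9% of all genes. GATAAG stood there at 13 of 80 (16.25%), against 7.11%. Of the 31 divergent gaps 20 held a GATA word, while 1 held a pooled summit. These gaps of 227 to 368 bp are longer than the windows above, so the 2 kinds of share cannot be compared. No share over other sequence of that length is given. Identical copies of a promoter count more than once among the 80 genes and among the 31 gaps.

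The 2 kb to each side of the histone 5′ ends was far more repeated than that of other genes. A median of 54.6% of the 31-base words there occurred once in the genome, against 99.0% for all genes. The share was under 50% for 39 of 80 histone genes (48.75%), against 2.38% of all genes. No unique word within 500 bp was found for 25 (31.25%), against 1.05%. The sources used here do not say how reads that fit several places were treated, and the part of repeated sequence in the counts of regions was not tested.

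Split by this share, a division made after the data were seen, a pooled region was present for 11 of 39 genes under 50% unique (28.2%, 15.0 to 44.9), against 13.7% of all such genes. From 50 to 90% it was present for 12 of 23 (52.2%, 30.6 to 73.2), against 59.8%, and from 90% for 17 of 18 (94.4%, 72.7 to 99.9), against 77.5%. The exception in the last group was hil-4. In the pooled list the histone share was thus above that of all genes under 50% and from 90%, and below it between. The 11 genes under 50% rest on fewer regions, so their interval is too narrow. A single region of signal 16.7, with no summit of either replicate within 100 bp, served his-9, his-10, his-25 and his-26. Replicate 1 had an overlapping region near the same 4 genes (signal 9.68), with its summit just beyond 100 bp. Another pooled region served his-17 and his-18, and another his-57 and his-58. The shares of all genes include the histone genes. In replicate 1 the counts, in the same order, were 12 of 39 against 16.6%, 12 of 23 against 61.4% and 18 of 18 against 77.4%. In replicate 2 they were 1 of 39 (2.56%) against 6.09%, 7 of 23 (30.4%) against 34.4% and 12 of 18 (66.7%) against 53.3%. The order under 50% thus turned in replicate 2, where the histone share lay below that of all genes.

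**Figure D5:**
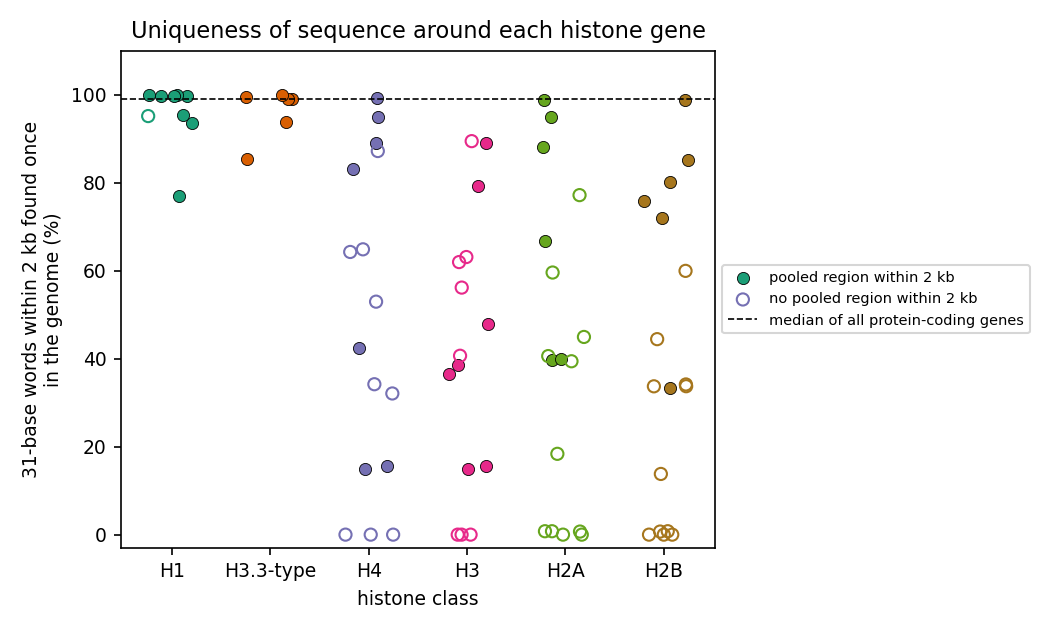
Share of 31-base words within 2 kb of the 5′ end that occur once in the genome (percent), for each of the 80 histone genes by class, where filled points have a pooled region within 2 kb, open points have none and the dashed line is the median of all protein-coding genes (99.0%). Linker and H3.3-type genes all lie above 70%, core genes reach down to 0, and open points gather at low values.

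The genes were also split by number of exons. A pooled region was present for 25 of 64 genes of 1 exon (39.1%), against 66.5% of all genes of 1 exon, and for 15 of 16 with 2 or more (93.75%), against 73.3%. Within the single-exon genes the count was 10 of 38 (26.3%) under 50% unique, 11 of 22 (50%) from 50 to 90%, and 4 of 4 from 90% (his-67, his-68, his-69 and his-70). Over all single-exon genes the shares in the same order were 21.5%, 56.5% and 77.8%. Under 50% the 38 histone genes are most of the 65 single-exon genes and hold 10 of the 14 with a region. The 21.5% is thus not an independent comparison. Of the histone genes with 2 or more exons, 13 of 14 had a region from 90% unique, against 77.5% of all such genes. A region was also present for his-57 (under 50%) and hil-1 (from 50 to 90%), against 12.4% and 60.0% of all such genes. The share of single-exon genes with a region was thus higher in each group of greater uniqueness. This held for histone genes and for all genes, which include the histone genes. From 90% all histone genes but hil-4 had a region.

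Within the clusters themselves pooled regions were fewer per 10 kb than in the whole genome. The 6 clusters under 50% unique, with 41 genes over 38742 bp, held 1 pooled region (0.258 per 10 kb), and 2 regions of replicate 1 and 0 of replicate 2. The 8 clusters from 50% unique, with 26 genes over 23259 bp, held 4 pooled regions (1.72 per 10 kb), and the whole genome had 2.99 per 10 kb. These 8 clusters also held 5 regions of replicate 1 and 3 of replicate 2. All of these counts are small. The cluster from his-50 to his-53 on chromosome V, with 6 genes and no unique word, held none in any list, and none lay within 2 kb of it. In all, 29 of 80 histone genes (36.25%, 25.8 to 47.8) had no region within 2 kb in the pooled list or in that of either replicate, against 13.4% of all genes. The gene with a pooled summit just within 2 kb was his-55 (1792 bp, signal 22.3), and the one just beyond was his-5 (2050 bp, 14.7).

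A list of 24 genes for the supply and handling of histones was set beside them. Of these, 1 (4.17%, 0.105 to 21.1) had an optimal peak, and 17 had a pooled region (70.8%, 48.9 to 87.4), as did 18 in replicate 1 and 11 in replicate 2. The shares in the long lists were close to those of all genes given above. The optimal peak was that of htz-1, which encodes the variant H2A.Z, 325 bp upstream with a signal of 57.7, and 29.0 in replicate 1 and 26.4 in replicate 2. Next came cdl-1, the stem-loop binding protein of histone mRNA, 163 bp upstream with 42.1 in the pooled list at rank 261, and 20.7 and 21.0 in the replicates. Both genes had their summit upstream of the 5′ end and a region in each long list.

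Then followed xnp-1, a remodeller of the ATRX type (32.7, 1299 bp downstream), hmg-4, a subunit of the FACT chaperone (22.0, 731 bp downstream) and cpar-1, a paralogue of centromeric H3 (20.5, 1764 bp upstream). The H3.3 chaperone gene hira-1 had no region in any list, nor did nap-1, a nucleosome assembly protein gene, or ssl-1, a remodeller gene for H2A.Z.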

How the data were processed

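ELT-3 ChIP-seq region lists of 2 replicates of 1 group were used, in build ce11. The signal value is a score that the authors deposited for each region. Per the deposited notes on the files, each replicate list was made from that replicate's alignments with a control, the pooled list from both, and the optimal set from these lists. The sources used here do not name the aligner, the peak caller, their versions or the IDR threshold. The lists in ce10 were not used. The sequence of 1 region near a histone gene is not reported here.

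Genes came from Ensembl release 115 (WBcel235, the same assembly as ce11). Ensembl gives 1 symbol to several identical copies, so that 36 of the 80 histone genes share theirs with another; names were therefore taken from RefSeq by WormBase ID, which matched 80 of 80. Summit distances are to the gene's 5′ end. Summits matched between lists within 100 bp. Uniqueness is the share of 31-base words that occur once in the genome, both strands counted. Intervals are 95% exact (Clopper-Pearson) and cover counting error only; genes of a cluster are not independent. A count of 0 allows up to 3 counts of the total. No test was run. Read depth is unknown, so precision rests on the numbers of genes and regions.

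The named genes are those near optimal peaks, those nearest the 10 pooled regions of largest signal, every linker and H3.3-type gene, supply genes with an optimal peak and the 5 of largest pooled signal, and members of counts of 5 or fewer. Others (hil-5 pattern matches, neighbours, his-61, his-39 and the cluster examples) were chosen after their values were seen. The members and lists were chosen with earlier results of these data known. Splits by uniqueness, exons and clusters, the 500 bp distance and the shared pattern were added after seeing the data. Alternatives were other distances, gene assignment, transcripts, stronger regions, single replicates and other words. Distance and word counting were tested on simulated data. Scripts used Python 3.11.15, numpy 2.4.6, pandas 2.3.3, scipy 1.17.1, matplotlib 3.10.9.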

Additional observations from a re-analysis of the deposited data

How the results depend on the processing

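The values below are from 7 results under 28 alternatives, of which 27 were planned. Within 1 kb in place of 2 kb, 2 histone genes had an optimal peak (4 within 2 kb), 24 distinct pooled regions were counted (41), the median percentile was 69.8 (64.1) and 10 genes had a region in both replicates (16). Given to the nearest gene alone, optimal peaks reached 2 histone genes and pooled regions 22 (40). The 5000 strongest pooled regions reached 16 genes, and the 500 bp distance, added after the data were seen, 10. GATAAG in place of the 4 GATA words gave 0% of summits (12.2%). With 1 replicate left out, the genes with a strong region (the 253 strongest of the other) ranged from 0 to 4 and those peaks from 0 to 2; the 0 is without replicate 2, where the his-37 region ranked 255. The genes with a region ranged from 20 to 42, the regions from 21 to 46, the median percentile from 57.0 to 59.5 and the share with a GATA word from 13% to 23.8%. The lists differ in length, which sets part of these ranges. The other alternatives stayed within 1.5 times the count or within the interval of the share. No paired analysis was possible because the samples form 1 group. Unknown read depth and repeated sequence limit every count of 0.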
